A study of Mus musculus with 6 samples.

Results

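The transcripts of 10 cell-cycle genes were examined in Abcc4-/- and WT mouse samples labelled as megakaryocytes. They comprise the D cyclins Ccnd1, Ccnd2 and Ccnd3, the E cyclins Ccne1 and Ccne2, the later cyclins Ccna2, Ccnb1 and Ccnf, the kinase gene Cdk6 and the kinase inhibitor gene Cdkn1b. They were taken by gene symbol from a table of 55573 genes, each symbol matched 1 row, and all 10 passed the filter on low counts that left 16493 genes for testing. There were 3 Abcc4-/- libraries and 3 WT libraries of total RNA, whose titles carry the name CD41, a surface marker of megakaryocytes. The labels give no treatment, and the strain, age and sex of the mice, the deleted part of Abcc4 and the way cells were selected are not known here. Abcc4 encodes a membrane pump that exports cyclic nucleotides and nucleotide-type drugs, and the comparison asks how transcripts differ without it. The design text gives 3 mice per genotype but ties no library to an animal, and p-values therefore reflect only library-to-library spread, which may be technical.

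Cyclins are the activating partners of cyclin-dependent kinases. D cyclins with Cdk4 or Cdk6 phosphorylate the retinoblastoma proteins and release E2F transcription factors, which switch on E cyclins, and E cyclins with Cdk2 start DNA replication. Ccna2 carries cells through S phase and Ccnb1 with Cdk1 drives entry into mitosis. Cdkn1b, also known as p27, holds cyclin-Cdk2 complexes inactive. Megakaryocytes become polyploid by endoreplication, in which rounds of DNA synthesis continue without completed cell division, and D and E cyclins are known for their part in it.

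Library totals were 67009967 to 99294510 expected counts in Abcc4-/- and 50440283 to 55123551 in WT, so the lowest count of any of the 10 genes in a library, 1133 for Ccne1, was far above the floor of 3 counts. Abcc4 itself, which the counts cover over its whole length, stood at 61.0 ± 1.13 CPM in Abcc4-/- and 73.9 ± 1.96 CPM in WT (SD, n = 3 each, 82.5% of WT; edgeR, adjusted p = 0.0026), which does not check the genotype labels because the deleted part is unknown here. CPM is the count relative to library size, scaled with the TMM method. Genes are said to have risen or fallen in Abcc4-/- at an edgeR adjusted p below 0.05. Of all 16493 genes tested, 8.61% rose and 8.68% fell, and the marker counts are to be read against these shares. A list of 11 megakaryocyte markers summed to 199 to 238 CPM in Abcc4-/- and 289 to 343 CPM in WT, and 7 of them fell and 1 rose. The highest of this list was Itga2b, with means of 96.1 CPM in Abcc4-/- and 158 CPM in WT, and it fell. Itgb3 came next, with means of 72.2 CPM in Abcc4-/- and 69.98 CPM in WT, and neither rose nor fell. Gp6 and Tubb1, defining genes of mature megakaryocytes, were the lowest of the list. They were near 0, at no more than 0.327 and 1.02 CPM in any library. The 9 neutrophil markers summed to 33084 to 35849 CPM in Abcc4-/- and 16850 to 22313 CPM in WT, and all 9 rose. Of the B progenitor markers 6 of 8 rose (714 to 791 CPM summed in Abcc4-/- and 357 to 525 CPM in WT), as did 5 of 6 T cell markers (37.1 to 49.9 CPM in Abcc4-/- and 23.1 to 28.5 CPM in WT) and 2 of 6 erythroid markers (342 to 484 CPM in Abcc4-/- and 430 to 466 CPM in WT). Of the stem and progenitor markers 3 of 4 fell (399.8 to 469.9 CPM in Abcc4-/- and 545 to 608 CPM in WT), as did 2 of 6 monocyte and macrophage markers (3518 to 3877 CPM in Abcc4-/- and 3564 to 4115 CPM in WT) and 1 of 4 granulocyte precursor markers (5242 to 5483 CPM in Abcc4-/- and 5403 to 6600 CPM in WT). No marker was at 0 in any library. With single libraries left out, 9 of 9 neutrophil markers still rose each time, as did 4 to 7 B progenitor and 4 to 5 T cell markers. The megakaryocyte markers that fell numbered 4 to 6 in these fits, with 4 without Abcc4-/- replicate 1 or WT replicate 3. Their median log2 fold change ran from -0.59 to -0.51. The megakaryocyte count that rose was 0 without Abcc4-/- replicate 2 or 3 or WT replicate 2 or 3. The counts of the remaining cell types changed with single libraries. The stem and progenitor count was 0 without WT replicate 2 and 1 without Abcc4-/- replicate 1 or 3. The monocyte and macrophage count was 0 without Abcc4-/- replicate 1 or 3 or WT replicate 1, 1 without Abcc4-/- replicate 2 or WT replicate 3, and 3 without WT replicate 2. The granulocyte precursor count was 2 without WT replicate 3 and 0 without any other single library. The erythroid count that rose was 0 without Abcc4-/- replicate 1, and 1 without Abcc4-/- replicate 3, where 1 fell, or WT replicate 2. In such mixed samples a shift in the share of a cell type and a change of RNA per cell cannot be told apart, and the part of these shifts in the results on cyclins was not tested.

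Ccnd3 was by far the most abundant of the 10 transcripts per length. In TPM, a measure scaled by transcript length, Ccnd3 had 402, 398 and 405 TPM in the Abcc4-/- libraries and 328, 328 and 312 TPM in the WT libraries. Ccna2 followed at 121 ± 5.95 TPM in Abcc4-/- and 125 ± 6.20 TPM in WT (SD, n = 3 each). Ccnb1 and Cdkn1b came next, at 69.6 ± 2.94 and 63.8 ± 1.84 TPM in Abcc4-/-, and at 76.4 ± 7.13 and 66.4 ± 3.24 TPM in WT, where their ranges overlapped. Ccnf stood at 35.0 ± 1.95 TPM in Abcc4-/- and 32.1 ± 2.24 TPM in WT, and Cdk6 at 24.2 ± 3.28 TPM in Abcc4-/- and 32.5 ± 4.45 TPM in WT. The lower part of the order was not resolved: in Abcc4-/- the ranges of Cdk6 and Ccnd2, of Ccnd2 and Ccne2, and of Ccne2 and Ccne1 overlapped, and in WT those of Cdk6 and Ccnf, of Ccne1 and Ccne2, and of Ccne2 and Ccnd1. Ccnd1 was lowest by its mean in both genotypes, at 14.6 ± 0.919 TPM in Abcc4-/- and 15.8 ± 0.727 TPM in WT. The means of the highest and the lowest of the 10 genes differed 27.5-fold in Abcc4-/- and 20.5-fold in WT.

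**Figure D1:**
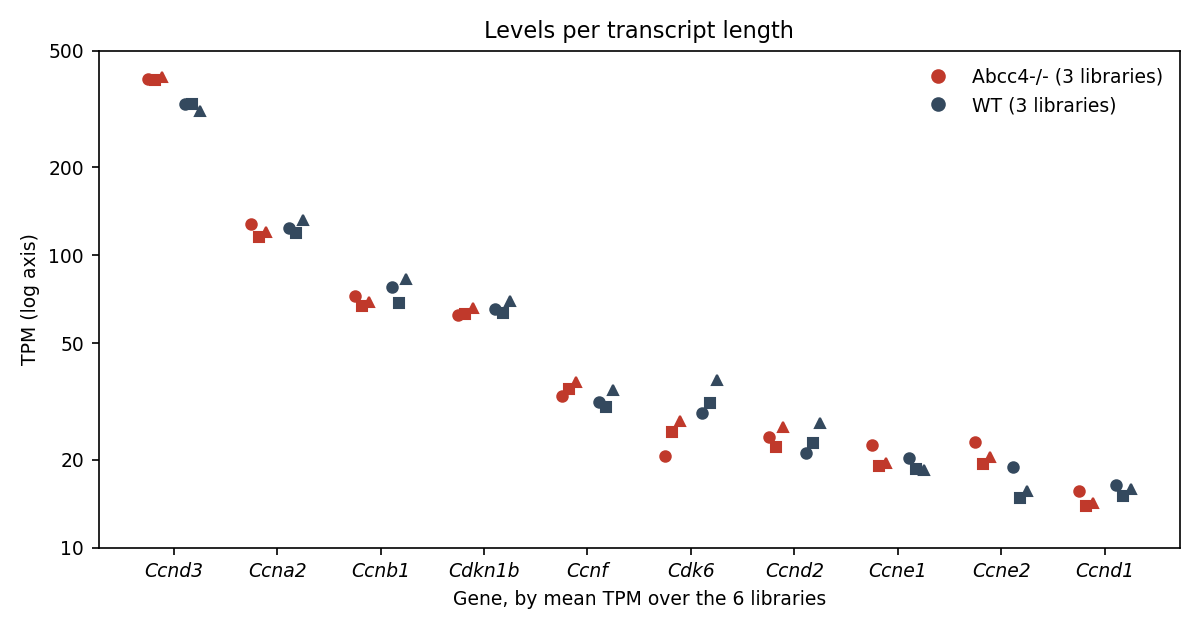
Level of each gene in TPM on a log axis, with genes ordered by their mean over the 6 libraries, Abcc4-/- libraries in red left of WT libraries in dark blue, and 1 point per library. Ccnd3 lies above all other genes, at 398 to 405 TPM in Abcc4-/- and 312 to 328 TPM in WT.

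Between genotypes, 3 of the 10 genes rose in Abcc4-/- and 0 fell: Ccnd3, Ccne2 and Ccnf. The test was edgeR's quasi-likelihood test with Benjamini-Hochberg adjustment over the 16493 genes, at an adjusted p of 0.05. It called 17.3% of all genes, 8.61% higher and 8.68% lower, so 3 of 10 is to be read against 8.61%. Of all calls 49.8% were higher, against 28.4% with limma on log2(TPM + 1), 27.9% on log2(TPM + 0.1) and 57.0% on log2(TPM + 1) with centred libraries, so the split depends on the scale. At an unadjusted p of 0.05 in edgeR, 6 of the 10 genes passed, against 30.9% of all genes, and Cdk6 was the only one of these with a lower value in Abcc4-/-. DESeq2 called 4 of the 10 higher and 1 lower, against 8.72% and 9.02% of all genes. limma on log2(TPM + 1) called 1 higher and 0 lower, against 3.63% and 9.17% of all genes, and the same numbers on log2(TPM + 0.1), against 3.65% and 9.41%. edgeR with no filter on low counts called 5 higher and 1 lower, against 6.28% and 5.99% of the 26780 genes then tested. In CPM, the 3 Abcc4-/- libraries all lay above the 3 WT libraries for 5 of the 10 genes (18.4% of all genes) and all below them for 1 (18.3%), together 6 of 10 against 36.8% of all genes. In TPM, Ccnd3, Ccne2 and Cdk6 still separated the genotypes, whereas Ccnd2, Ccne1 and Ccnf overlapped. The share of all genes that separate in TPM was not computed. The median log2 fold change was 0.11 over the 10 genes and 0.00 over all genes, and the median absolute log2 fold change was 0.18 and 0.13.

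**Figure D2:**
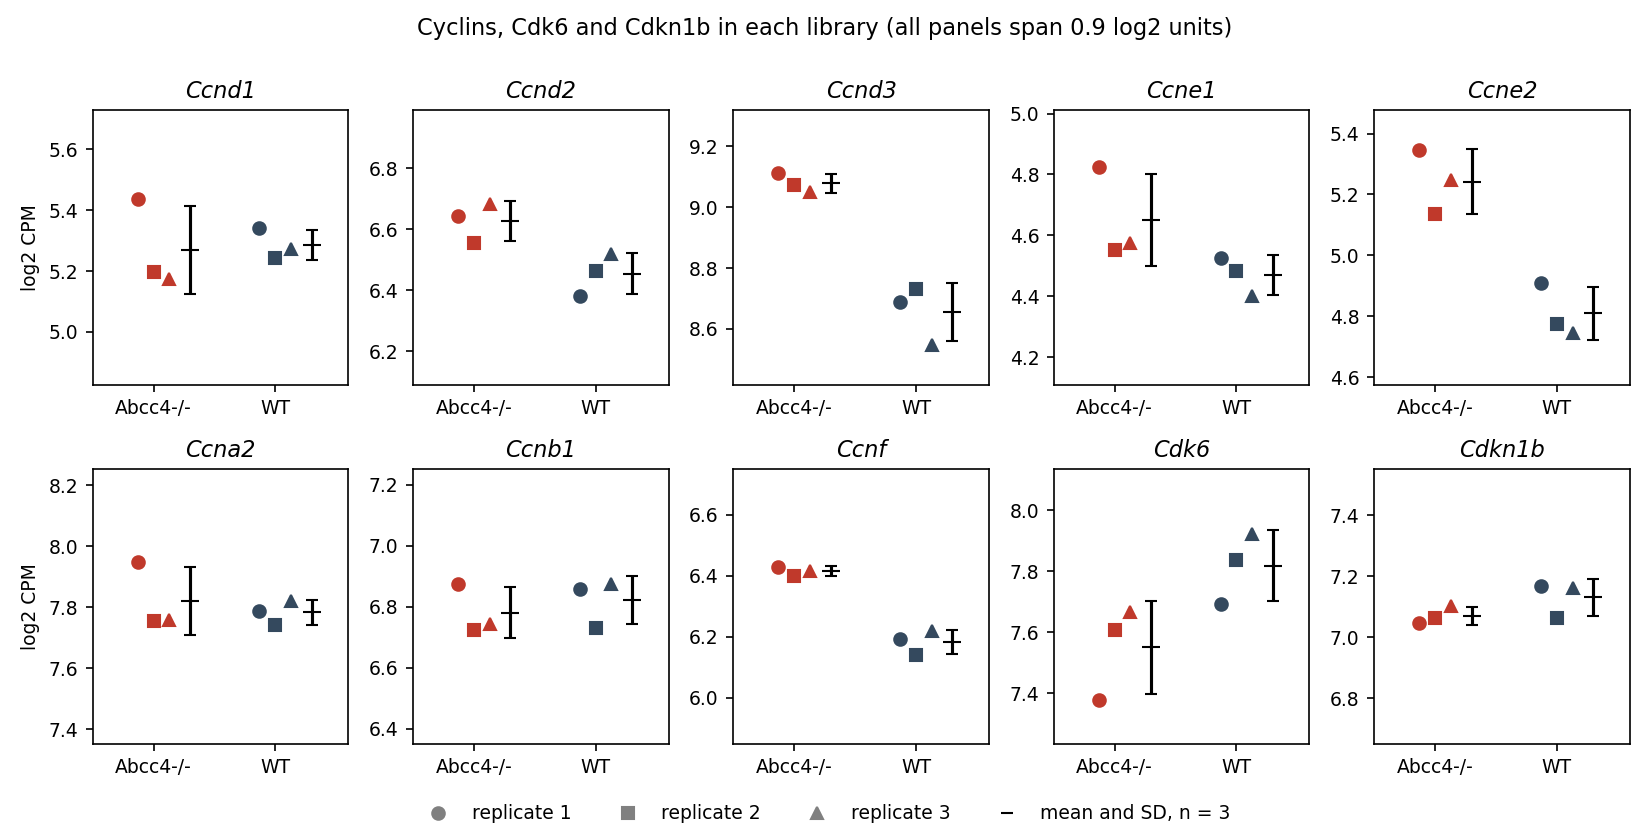
log2 CPM of each gene in every library, Abcc4-/- left of WT, with the mean and SD of 3 libraries beside the points. Every panel spans the same range of log2 units, so that distances can be compared between panels, and Ccnd3, Ccne2 and Ccnf show the clearest gaps between genotypes.

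Of the D cyclins, Ccnd3 rose and the others did not pass. Ccnd3 (ENSMUSG00000034165.16, chromosome 17, 47505051 to 47599691, plus strand of GRCm38) had log2 CPM values of 9.11, 9.07 and 9.05 in the Abcc4-/- libraries, against 8.69, 8.73 and 8.55 in the WT libraries. All Abcc4-/- libraries lay above all WT libraries, by more than the spread within either genotype. The means were 541 ± 11.7 CPM in Abcc4-/- and 404 ± 26.4 CPM in WT (SD, n = 3 each), a 1.34-fold increase (log2 fold change 0.42, SE 0.06; edgeR, adjusted p = 0.00081). The call held under each of the 17 alternative settings (adjusted p = 1.8e-10 to 0.0073).

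Ccnd2 (ENSMUSG00000000184.12, chromosome 6, 127125162 to 127152193, minus strand), the D cyclin known for its induction by growth factors in blood cells, lay just outside the threshold. Its log2 CPM values were 6.64, 6.55 and 6.68 in Abcc4-/-, against 6.38, 6.46 and 6.52 in WT. The groups did not overlap, though the gap between them was narrower than the range within either (log2 fold change 0.17, SE 0.05; edgeR, adjusted p = 0.0510). With DESeq2 it passed (adjusted p = 0.0423), and over all alternatives the adjusted p ran from 0.0239 to 0.878. The highest of these came from log2(TPM + 1), where the log2 fold change was 0.03 and the TPM ranges of the genotypes overlapped.

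Ccnd1 (ENSMUSG00000070348.5, chromosome 7, 144929931 to 144939925, minus strand), the D cyclin best known from solid tumours, did not pass the test. It had log2 CPM values of 5.44, 5.20 and 5.18 in Abcc4-/-, against 5.34, 5.24 and 5.27 in WT, so the WT libraries lay within the range of the Abcc4-/- libraries. The 95% interval of the difference ran from 0.890-fold to 1.10-fold (edgeR, adjusted p = 0.927). Its sign turned with the library left out, as given in the closing section.

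The D cyclins were also set against each other. Ccnd3 made up 91.3 ± 0.385% of the summed D cyclin TPM in Abcc4-/- and 89.1 ± 0.986% in WT (SD, n = 3 each), without overlap between the genotypes. The sum itself was 440.1 ± 6.05 TPM in Abcc4-/- and 362 ± 6.12 TPM in WT, 1.22-fold higher. On the log2 scale, the TPM ratio of Ccnd3 to Ccnd1 was 4.78 ± 0.09 in Abcc4-/- and 4.36 ± 0.08 in WT, and the ratio of Ccnd3 to Ccnd2 was 4.07 ± 0.10 in Abcc4-/- and 3.78 ± 0.21 in WT. The share of Ccnd1 was 3.32 ± 0.198% in Abcc4-/- and 4.35 ± 0.221% in WT. Each of these 5 measures separated the genotypes completely (two-sided exact permutation p = 0.1, the lowest that 3 against 3 can reach; 0.155 when adjusted over 17 such measures). The share of Ccnd2, 5.43 ± 0.352% in Abcc4-/- and 6.51 ± 0.915% in WT, overlapped between the genotypes (two-sided exact permutation p = 0.2, adjusted 0.243). Of the 17 measures, which are sums, shares and ratios of TPM, 11 separated the genotypes and 6 overlapped. The genotypes did not overlap in CPM for 36.8% of all genes, but that share is for single genes on another scale. No matching share was computed for sums, shares and ratios of TPM. The measures share genes and are not independent, and those built on the D cyclin sum largely restate Ccnd3.

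Both E cyclins had higher values in Abcc4-/-, and Ccne2 passed the test. Ccne2 (ENSMUSG00000028212.16, chromosome 4, 11191351 to 11204779, plus strand) had log2 CPM values of 5.35, 5.13 and 5.25 in Abcc4-/-, against 4.91, 4.78 and 4.75 in WT. All Abcc4-/- libraries lay above all WT libraries. The means were 37.9 ± 2.76 CPM in Abcc4-/- and 28.1 ± 1.71 CPM in WT (SD, n = 3 each), a 1.35-fold increase (log2 fold change 0.43, SE 0.07; edgeR, adjusted p = 0.0015). The call held without any single library but not on log2(TPM + 1) or log2(TPM + 0.1) (log2 fold changes 0.33 and 0.35, adjusted p = 0.0666 and 0.0612). It held on log2(TPM + 1) with each library centred on its median, a setting chosen after seeing the data (adjusted p = 0.0378).

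Ccne1 (ENSMUSG00000002068.16, chromosome 7, 38097984 to 38107534, minus strand) had log2 CPM values of 4.82, 4.55 and 4.58 in Abcc4-/-, against 4.53, 4.48 and 4.40 in WT. Abcc4-/- replicate 1 stood apart from the rest, and the groups were separated by a narrow margin. The difference did not pass (log2 fold change 0.18, SE 0.08; edgeR, adjusted p = 0.128), and its 95% interval ran from 1.01-fold to 1.28-fold. Without Abcc4-/- replicate 1 the log2 fold change of Ccne1 was 0.095 (adjusted p = 0.377), and on log2(TPM + 1) it was 0.082 (adjusted p = 0.514), where the TPM ranges of the genotypes overlapped. The summed E cyclin TPM was 45.5, 38.3 and 39.9 in Abcc4-/-, against 39.2, 33.5 and 34.1 in WT, with overlap (two-sided exact permutation p = 0.2, or 0.243 adjusted over 17 measures). Ccne2 made up 50.7 ± 0.445% of the summed E cyclin TPM in Abcc4-/- and 46.2 ± 1.91% in WT, without overlap (SD, n = 3 each; two-sided exact permutation p = 0.1, the lowest attainable, and 0.155 adjusted over 17 measures).

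Among the later cyclins, Ccnf rose while Ccna2 and Ccnb1 did not pass. Ccnf, unlike the classical cyclins, works as the substrate receptor of an SCF ubiquitin ligase that limits several replication and centrosome proteins. Ccnf (ENSMUSG00000072082.7, chromosome 17, 24222198 to 24251484, minus strand) had log2 CPM values of 6.43, 6.40 and 6.42 in Abcc4-/-, against 6.19, 6.14 and 6.22 in WT. The genotypes did not overlap and the Abcc4-/- libraries lay close together. The means were 85.3 ± 0.940 CPM in Abcc4-/- and 72.6 ± 2.01 CPM in WT (SD, n = 3 each), a 1.17-fold increase (log2 fold change 0.23, SE 0.05; edgeR, adjusted p = 0.0064). On log2(TPM + 1) and log2(TPM + 0.1) the log2 fold change was 0.12 and the call ended (adjusted p = 0.266 and 0.261), and the TPM ranges overlapped. It held with centred libraries (adjusted p = 0.0355) and without any single library (0.0057 to 0.0270).

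Ccna2 (ENSMUSG00000027715.9, chromosome 3, 36564865 to 36572150, minus strand) had log2 CPM values of 7.95, 7.76 and 7.76 in Abcc4-/-, against 7.79, 7.74 and 7.82 in WT, and the groups overlapped. Its 95% interval ran from 0.937-fold to 1.13-fold (edgeR, adjusted p = 0.701). Ccnb1 (ENSMUSG00000041431.16, chromosome 13, 100778650 to 100786570, minus strand) had log2 CPM values of 6.88, 6.72 and 6.74 in Abcc4-/-, against 6.86, 6.73 and 6.87 in WT, again with overlap. Its interval ran from 0.889-fold to 1.06-fold (edgeR, adjusted p = 0.690). Ccnb1 had fractional expected counts in all 6 libraries, which means that some of its reads were shared with other loci, so its values are less certain than those of the others. The log2 TPM ratio of Ccnf to Ccnb1 was -0.99 ± 0.13 in Abcc4-/- and -1.25 ± 0.06 in WT, without overlap, and that of Ccnf to Ccna2 was -1.79 ± 0.14 in Abcc4-/- and -1.96 ± 0.03 in WT, with overlap (SD, n = 3 each; two-sided exact permutation p = 0.1 and 0.2, or 0.155 and 0.243 adjusted over 17 measures). The summed TPM of Ccna2, Ccnb1 and Ccnf was 226 ± 7.86 in Abcc4-/- and 233 ± 15.3 in WT, with overlap (two-sided exact permutation p = 0.5, also 0.5 adjusted).

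**Figure D3:**
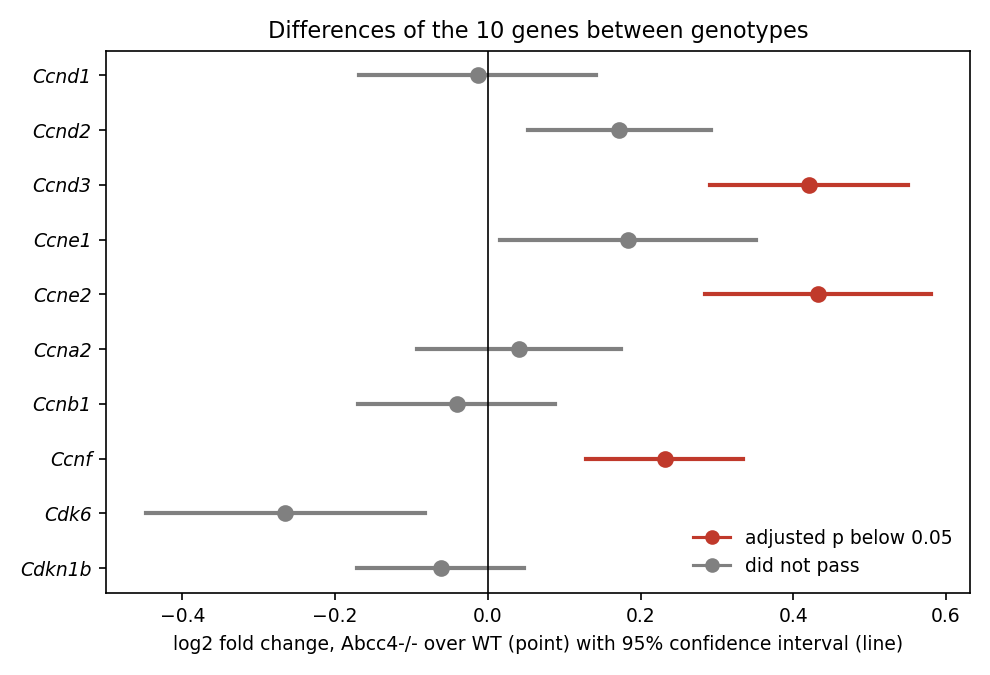
log2 fold change of Abcc4-/- over WT for each gene (points) with its 95% confidence interval from the edgeR fit (lines), red where the adjusted p was below 0.05 and gray otherwise. Ccnd3 and Ccne2 lie furthest right at 0.42 and 0.43, and Cdk6 is the only gene whose interval lies wholly below 0.

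Cdk6, the kinase partner of D cyclins that is prominent in blood cells, had lower values in Abcc4-/- and lay just outside the threshold. Cdk6 (ENSMUSG00000040274.11, chromosome 5, 3341485 to 3531008, plus strand) had log2 CPM values of 7.38, 7.61 and 7.67 in Abcc4-/-, against 7.69, 7.84 and 7.92 in WT. The lowest WT library lay just above the highest Abcc4-/- library, so the gap was far smaller than the spread within a genotype. The means were 188 ± 19.2 CPM in Abcc4-/- and 226 ± 17.9 CPM in WT (SD, n = 3 each; log2 fold change -0.27, SE 0.08; edgeR, adjusted p = 0.0516). The 95% interval ran from 0.733-fold to 0.944-fold. The call depended on the setting: 7 of 17 alternatives called Cdk6 lower, DESeq2 among them (adjusted p = 0.0114), and the range was 0.0034 to 0.165. Without Abcc4-/- replicate 1, its lowest library, the log2 fold change was -0.18 (adjusted p = 0.146), and without WT replicate 3, its highest, -0.21 (0.165).

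Cdk4, the other kinase partner of the D cyclins, given here after its values were seen, did not pass. It had 198 ± 6.86 CPM in Abcc4-/- and 186 ± 10.2 CPM in WT (SD, n = 3 each; log2 fold change 0.09, SE 0.06; edgeR, adjusted p = 0.320). Cdk6 made up 6.49 ± 0.997% of the summed Cdk4 and Cdk6 TPM in Abcc4-/- and 8.42 ± 1.35% in WT, without overlap (two-sided exact permutation p = 0.1, the lowest attainable, and 0.155 adjusted over 17 measures). Their sum, 373 ± 8.40 TPM in Abcc4-/- and 387 ± 20.7 TPM in WT, overlapped (exact permutation p = 0.4, adjusted 0.425).

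Cdkn1b (ENSMUSG00000003031.14, chromosome 6, 134920401 to 134925513, plus strand) did not pass the test. Its log2 CPM values were 7.04, 7.06 and 7.10 in Abcc4-/-, against 7.17, 7.06 and 7.16 in WT, with overlap. The 95% interval of the difference ran from 0.888-fold to 1.03-fold (edgeR, adjusted p = 0.445). Set against it, the summed D cyclin TPM was 6.90 ± 0.157 times the Cdkn1b TPM in Abcc4-/- and 5.46 ± 0.348 times in WT, without overlap (SD, n = 3 each; two-sided exact permutation p = 0.1, the lowest attainable, and 0.155 adjusted over 17 measures).

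The count per TPM of a gene gives its effective transcript length as RSEM estimated it from the mixture of isoforms, and it was taken relative to the median of 10213 well measured genes in the same library. For Cdkn1b this relative length was 1.33, 1.36 and 1.38 in Abcc4-/-, against 1.48, 1.41 and 1.44 in WT, so the genotypes did not overlap, and the size of its log2 difference of -0.09 was at or above that of 93.0% of these genes. For Cdk6 it was 5.05, 5.02 and 4.94 in Abcc4-/-, against 4.85, 4.90 and 4.57 in WT, also without overlap. The size of its log2 difference of 0.07 was at or above that of 87.5% of these genes. Cdk6 thus had the longest estimated transcripts of the 10 genes. For Ccnd2 the values were 2.62, 2.72 and 2.63 in Abcc4-/-, against 2.67, 2.59 and 2.42 in WT, with overlap. The log2 difference of Ccnd2 was 0.05, in size at or above that of 82.5% of the 10213 genes. How many of the 10213 genes separated the genotypes in relative length was not computed. For Ccnd3, Ccne2 and Ccnf the log2 difference lay between -0.01 and 0.02. The annotation lists 3 transcripts for Cdkn1b, 6 for Cdk6, 8 for Ccnd2 and 21 for Ccnd3, and values per isoform were not analysed here.

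The libraries did not contribute evenly to the spread of the 10 genes. Within the Abcc4-/- group, replicate 1 had the highest log2 CPM for 7 of the 10 genes and the lowest for 2, Cdk6 and Cdkn1b, while replicate 2 had the lowest for 6. Within WT, replicate 3 was highest for 5 genes and replicate 2 lowest for 5. In Ccnd1, Ccne1, Ccna2 and Ccnb1 the other Abcc4-/- replicates lay close together below replicate 1.

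The promoters of Ccnd3, Ccnf and Cdk6 are shown because the first pair rose and Cdk6 had the lowest fold change of the 10 genes. RefSeq promoter sequences (GRCm38.p6, 250 bases before to 50 after a start) matched 6 of the 10 genes, with 7 promoters, and Ccne2 was not among them. The searched motifs, on both strands, were the E2F motifs TTTGGCGC, TTTCGCGC, TTTCCCGC and TTTGCCGC, the cAMP response element TGACGTCA, its 5-base core TGACG, which is part of it, and the cell cycle homology region TTTGAA known from genes of late cell-cycle phases. The E2F motifs were in 0 of the 7 promoters (2.26% of all 32851 promoters) and the full TGACGTCA in 0 (1.79%). TGACG was present upstream of both Ccnd3 starts, of Cdk6 and, after the start, in Cdkn1b (20.8% of all promoters), and TTTGAA had 2 matches, at bases -130 and -14, in Ccnf (17.9% of all promoters). These letter matches are descriptions and are not shown to be bound. Capitals mark TGACG or TTTGAA, and bases are counted from the annotated start, 5′ to 3′ on the strand of the gene. The stretches are chr17:47504871-47504920 and chr17:47593407-47593466 (plus strand) for the upstream and downstream start of Ccnd3, chr17:24251410-24251559 (minus strand) for Ccnf and chr5:3343793-3343842 (plus strand) for Cdk6.
Ccnd3 upstream start, bases -180 to -131: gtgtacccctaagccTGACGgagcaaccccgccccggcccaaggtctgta
Ccnd3 downstream start, bases -60 to -1: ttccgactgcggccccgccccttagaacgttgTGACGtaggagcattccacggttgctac
Ccnf, bases -150 to -1: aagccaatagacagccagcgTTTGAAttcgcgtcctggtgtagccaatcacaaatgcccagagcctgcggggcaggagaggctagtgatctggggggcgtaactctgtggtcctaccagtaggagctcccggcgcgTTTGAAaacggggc
Cdk6, bases -100 to -51: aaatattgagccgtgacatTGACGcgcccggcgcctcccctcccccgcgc

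Most other genes of the cell-cycle machinery did not pass the test. In 7 lists of related genes, 99 genes were tested, of which 6 rose and 8 fell, against 8.61% and 8.68% of all genes. In the list of other cyclins and kinases of the cell cycle with their subunits, 0 of 9 tested genes rose and 1 fell (median log2 fold change 0.05), which was Cks2, a small Cdk-binding subunit (77.4 ± 4.79 CPM in Abcc4-/- and 104 ± 7.40 CPM in WT, 1.34-fold lower; edgeR, adjusted p = 0.0012). Cdk7 and Mnat1, parts of the Cdk-activating kinase, followed by their p and did not pass (log2 fold changes 0.14 and -0.12, adjusted p = 0.117 and 0.261). Cdk1, Cdk2 and Ccnb2, given here after their values were seen, had log2 fold changes of 0.05, 0.05 and 0.04 (adjusted p = 0.635, 0.499 and 0.632).

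Among 5 tested CDK inhibitors beside Cdkn1b, 1 fell and 1 rose (median log2 fold change 0.07). Cdkn1a, the inhibitor p21 that is induced by p53 and by stress signals, had 25.7, 20.7 and 23.9 CPM in Abcc4-/-, against 81.2, 70.9 and 89.9 CPM in WT. All Abcc4-/- libraries lay far below the WT libraries, a 3.45-fold decrease (log2 fold change -1.79, SE 0.11; edgeR, adjusted p = 3.1e-05). Cdkn2d, the Cdk4 and Cdk6 inhibitor p19, rose 1.24-fold (135 ± 6.83 CPM in Abcc4-/- and 109 ± 5.24 CPM in WT, adjusted p = 0.0037). Cdkn3, a phosphatase of Cdks, did not pass (log2 fold change 0.09, adjusted p = 0.395). Cdkn2a and Cdkn2b were too low to be tested, with means of at most 0.144 CPM in either genotype. The decrease of Cdkn1a and the increase of Cdkn2d held in each of 17 alternative settings, whereas Cdkn1b passed in none of its own.

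Of 19 retinoblastoma and E2F genes, 3 rose and 2 fell (median log2 fold change 0.05, and -0.05 on log2(TPM + 1), where 0 rose). E2f3, an activating E2F, rose 1.24-fold (30.8 ± 0.283 CPM in Abcc4-/- and 24.8 ± 1.83 CPM in WT, adjusted p = 0.0052), and Tfdp1, the dimer partner of E2F proteins, rose 1.15-fold (adjusted p = 0.0193). Foxm1, a transcription factor of late cell-cycle genes, fell 1.18-fold (125 ± 2.96 CPM in Abcc4-/- and 148 ± 7.25 CPM in WT, adjusted p = 0.0093). E2f3 and Tfdp1 lost their calls on both uncentred TPM scales, Foxm1 on centred TPM (0.0789), and Tfdp1 also without Abcc4-/- replicate 1 or 2 (0.0539 to 0.116 over its 4 lost calls). The other called genes, E2f2 (higher, adjusted p = 0.0264) and E2f8 (lower, 0.0350), were named after their values were seen, and each lost its call when any one of the Abcc4-/- libraries was left out, among other settings.

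Among 15 genes of the ubiquitin ligases that act on cell-cycle proteins, 1 rose and 1 fell (median log2 fold change 0.02). Skp2, the SCF receptor that directs p27, the product of Cdkn1b, to degradation, had 25.6, 23.8 and 25.0 CPM in Abcc4-/-, against 18.6, 16.5 and 16.7 CPM in WT. The genotypes were well separated (1.44-fold higher, log2 fold change 0.52, SE 0.06; edgeR, adjusted p = 0.00032), and the call held in each of 17 alternatives. Ube2s, an enzyme that works with the anaphase-promoting complex, fell 1.18-fold (adjusted p = 0.0088), and not on centred TPM (0.0856). Rbx1, the RING subunit of SCF ligases, did not pass (log2 fold change 0.18, adjusted p = 0.0672).

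Of 12 CDK phosphatases and kinases and mitotic kinases, 0 rose and 1 fell, Pkmyt1, a kinase that inhibits Cdk1 (1.20-fold lower, adjusted p = 0.0072; median log2 fold change -0.05). Cdc25b, which activates Cdks, missed the threshold narrowly (log2 fold change 0.21, adjusted p = 0.0502), and so by more did Wee1, which inhibits them (0.13, adjusted p = 0.119). Of 15 proliferation genes, 1 rose and 0 fell (median log2 fold change 0.06, and -0.03 on log2(TPM + 1), where 0 rose and 1 fell). This was Cdc6, which loads the replicative helicase (46.9 ± 1.77 CPM in Abcc4-/- and 40.0 ± 1.53 CPM in WT, 1.17-fold higher, adjusted p = 0.0128), and its call ended on both uncentred TPM scales (adjusted p = 0.127 and 0.129). Gmnn and Cdt1, which limit and license replication, did not pass (log2 fold changes 0.13 and -0.10, adjusted p = 0.139 and 0.173). The summed level of the 15 genes was 3339 to 3530 CPM in Abcc4-/- and 3309 to 3538 CPM in WT, with overlap.

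Among 24 cyclins and CDKs with roles outside the cell-cycle engine, 0 rose and 2 fell (median log2 fold change -0.05). Ccnl1, a cyclin of splicing factors, had 129.8, 118 and 132 CPM in Abcc4-/-, against 263, 267 and 324 CPM in WT, a 2.25-fold decrease without overlap (log2 fold change -1.17, SE 0.08; edgeR, adjusted p = 2.1e-05). Cdk14 fell 1.42-fold at a low level (4.04 ± 0.315 CPM in Abcc4-/- and 5.72 ± 0.527 CPM in WT, adjusted p = 0.0095), and lost its call on all 3 TPM scales. Cdk8, a kinase of the Mediator complex, missed the threshold narrowly (log2 fold change -0.18, adjusted p = 0.0501). The changes of Cdkn1a and Ccnl1 were larger than that of any of the 10 genes.

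**Figure D4:**
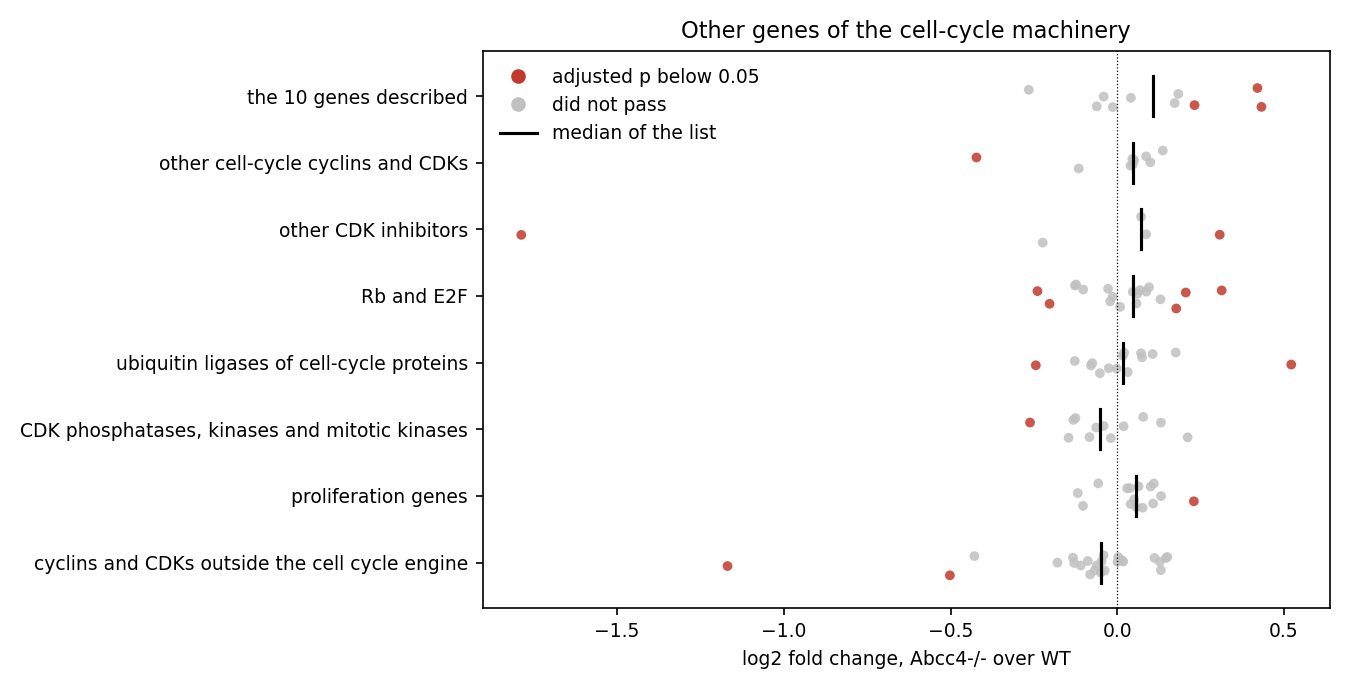
log2 fold change of Abcc4-/- over WT for the 10 genes described (top row) and for the tested genes of 7 related lists, 1 point per gene, red where the adjusted p was below 0.05, with a black line at the median of each list. The points furthest left are Cdkn1a at -1.79 and Ccnl1 at -1.17, and all list medians lie between -0.05 and 0.11.

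For the called genes, likeness was measured as the root mean square distance between profiles of log2 CPM over the 6 libraries, each centred on its WT mean, against the 99 genes of the lists. The profile of Ccnf was nearest to those of Cdc6 (0.03), E2f2 (0.05) and Tfdp1 (0.06). Ccne2 was nearest to Skp2 (0.07), Cdkn2d (0.09) and E2f3 (0.13), and Ccnd3 to E2f3 (0.09), Cdkn2d (0.10) and Skp2 (0.10). Because profiles were centred on WT, these distances mostly reflect a fold change of like size.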

How the data were processed

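The submitters' processing notes name STAR 2.7, RSEM 1.3.1 and the build mm10, without an annotation release. The authors deposited expected counts per gene, not normalized, and TPM values scaled within each library, both marked as stranded, and the labels describe a stranded kit. Spike-in rows (92, all at 0) were left out. Expected counts were rounded and tested with edgeR 4.0.16 in R 4.3.3 (TMM, its default filter, robust quasi-likelihood fit of Abcc4-/- against WT, Benjamini-Hochberg adjustment over all 16493 genes). Values in log2 CPM used a prior count of 2, and the SE of a fold change came from the size of its F statistic. Alternatives were DESeq2 1.42.0, limma 3.58.1 with voom or on log2(TPM + 1) and log2(TPM + 0.1), scales that understate changes of low genes, other scalings and filters, the replicate block and single libraries left out. Thinned counts and centred TPM were added after seeing the data. Single measures were compared with exact permutation tests (scipy 1.17.1).

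Positions came from GENCODE M21 on GRCm38, whose versioned identifiers matched 55094 of 55573 genes. Protein-coding genes overlap on the opposite strand at Ccnd1 (LTO1, up to 2118 counts in a library), Ccnd3 (Bysl, 2716), Ccne2 (Ints8, 3286) and Ccna2 (Exosc9, 3258), and antisense genes of at most 86 counts at Ccnd2 and Cdk6. The genes, lists and tests were chosen with earlier results of these data known. The rule named all 10 genes, from each list up to 3 genes with the smallest p and a mean log2 CPM of at least 1, and for each called gene its 3 nearest profiles; genes outside it are marked in the text. In simulated counts of this comparison (16493 genes, 200 changed), the test found 59.0% of the genes changed 1.5-fold and 81.8% of those changed 2-fold. Unchanged genes made up 8.50% of its calls, more than the share of 0.05 at which the threshold was set. The fold changes of the 10 genes lie below the simulated sizes of 1.5-fold and 2-fold. The simulation changed 200 genes, fewer than the 2852 called in the data, so its adjustment was stricter. Its shares therefore do not say how often changes of the 10 genes would be found.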

Additional observations from a re-analysis of the deposited data

How the results depend on the processing

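Over 17 alternatives for each of the 10 genes, 145 of 170 results kept their direction and their side of the threshold, 4 lost a call, 14 gained one and 7 turned in sign. The number of the 10 genes called higher, 3 at first, was 5 with no filter on low counts and 1 on log2(TPM + 1) and on log2(TPM + 0.1), where the median of all genes was -0.06 and -0.08. The number called lower was 0 at first. It was 1, Cdk6, with DESeq2, upper-quartile scaling, no filter, the replicate block and libraries thinned to the smallest total (chosen after seeing the data). It ranged from 0 to 1 when single libraries were left out. Among all genes, 1421 of 16493 were called lower with upper-quartile scaling and 1345 of 16138 when thinned. Without single libraries, 897 to 1265 of all genes were called lower. The count of all genes called, 2852, ranged from 1760 (without Abcc4-/- replicate 2) to 2415 without single libraries, and was 1821 without Abcc4-/- replicate 1. Signs that turned belonged to genes that never passed. The log2 fold change of Ccnd1 (-0.01) ran from -0.098 to 0.033 without single libraries. That of Ccna2 (0.04) was -0.046 on both uncentred TPM scales and ran from -0.024, without Abcc4-/- replicate 1, to 0.075. That of Cdkn1b (-0.06) was 0.031 on centred TPM. The causes were not tested.

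Libraries with the same replicate number did not deviate together (correlations of -0.05, -0.03 and -0.01 for numbers 1, 2 and 3), and no library correlated best with its own number. With 3 libraries per genotype, these correlations cannot decide whether libraries of the same number share more than the number. With the replicate block, 3157 of the 16493 genes were called, 1528 higher and 1629 lower, against 2852 called without it. Of the 10 genes, 4 were called higher and 1 lower in that fit.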
